A study of Oryza sativa with 16 samples.

Results

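Panicle and callus of the rice cultivar Nipponbare were never hybridized to the same array. Each was co-hybridized with Nipponbare shoot, and here the 2 were compared through that shared shoot. For every probe, array set and replicate, log2 of callus over shoot was subtracted from log2 of panicle over shoot, so that a positive difference means more signal in panicle. The differences came from 8 of the 16 arrays of the series, 4 with panicle and 4 with callus, over 2 array sets and 2 replicates. The other 8 arrays, with Nipponbare root and with shoot of the cultivar IR64, entered the fits for the estimate of the spread. Of the 83040 different probes in the design, 82918 gave a difference that could be tested.

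Panicles came from plants grown in soil in the field, were collected at the late-boot stage according to the methods, and have no age in the labels. Callus, induced from the scutellum, had grown for 28 days on solid callus induction medium at 30 °C under 24 hours of light. The shoots in the other channel came from soil in a greenhouse and were 10 days old according to the labels, as were the IR64 shoots. The methods of the paper give another, older age for both. They also state that RNA of several plants was pooled. Roots, whose ratios to shoot are given beside those of panicle and callus, were 10 days old and grown at 28 °C with 16 hours of light. RNA of panicle and callus was extracted with the same column kit, and that of shoot with Trizol. The tissue carried Cy3 in the first replicate and Cy5 in the other, so a replicate is also a dye orientation, and the effects of both cannot be told apart. Replicate 1 of panicle was set against shoot extract 1, whereas replicate 2 of panicle and both replicates of callus were set against shoot extract 2. The panicle and the callus arrays were each scanned in a session of their own, so that tissue and scan cannot be told apart. The labels do not say that the replicates came from separate plants or cultures, so p-values measure only the spread between these samples.

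The panicle is the flowering branch system of rice. At the late-boot stage it is still enclosed in the leaf sheath and holds developing spikelets with anthers and pistils. Callus is a mass of dividing cells that has lost the organization of the tissue it grew from, and is kept in that state by auxin in the medium. The 2 therefore represent a differentiating reproductive organ and a cultured tissue without organs.

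The files pair no probe with a gene name, and the identifiers are given as in the design. FL-cDNA loci are named by chromosome number, serial number and strand (R02-CHRv2-00645R). A probe ending in _C is shared by the transcripts of a locus, a probe ending in _S and a number is specific to 1 transcript variant, and E5 probes form a further class on the same loci. Probes of 1 locus share their target and are not independent. Models of the genome annotation are represented by ENDS and CDS probes, and 3′-end units by E3TU probes. Probe sequences are not shown here.

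Of the 82918 probes, 7723 were higher and 8211 lower in panicle than in callus (limma, Benjamini-Hochberg adjusted p under 0.05), which is 9.31% and 9.9% of those tested. Together 19.2% of the probes were called. The numbers in the 2 directions were thus close, and the median difference over all probes was -0.08 on the log2 scale. Among the 15934 probes called, 15684 had the same sign in both replicates, and 246 lacked a difference in 1 replicate because an outlier spot had been left out. A call rests on these same replicate differences, so that an equal sign is nearly certain and no separate check. The number of calls depended on the arrays in the fit. With only the panicle and callus arrays 7019 probes were higher and 6459 lower. With replicate 1 left out in both tissues 1074 probes were higher and 390 lower, and with replicate 2 left out the numbers were 1713 and 560. With a single replicate left out they were 4336 and 3775 without callus replicate 1, 5034 and 3768 without callus replicate 2, 5448 and 4432 without panicle replicate 1, and 5645 and 4934 without panicle replicate 2.

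The differences measured in the 2 replicates followed each other across probes, which are not independent replicates. Pearson's r was 0.727 in array set 1 and 0.857 in array set 2, and over probes well above background in every channel it was 0.806 and 0.927. The SD between replicates was 0.59 and 0.41 on the log2 scale over all probes. The 1002 probes with differences on both array sets gave nearly the same value on each, with a median absolute difference of 0.13.

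**Figure D1:**
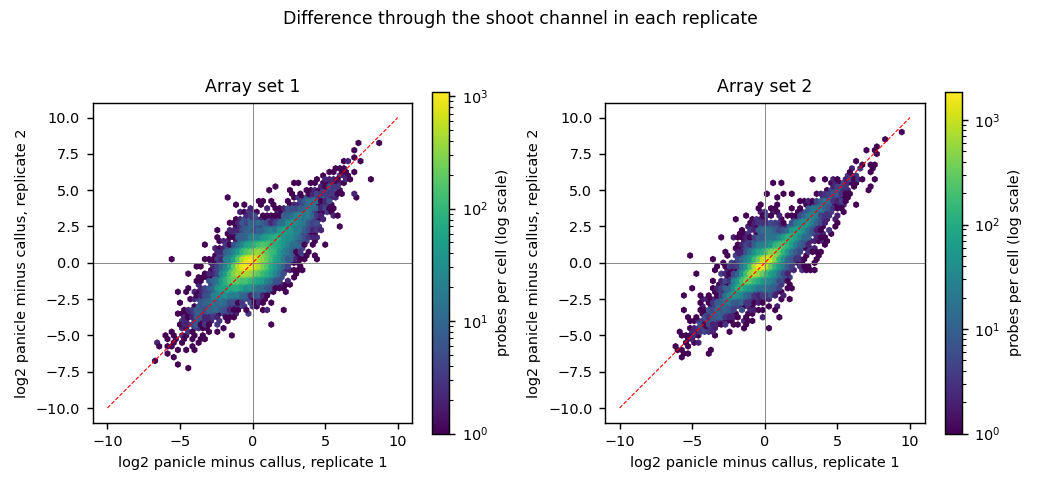
Difference of panicle minus callus (log2, through the shoot channel) in replicate 1 (x axis) and replicate 2 (y axis) for probes on 1 array set only; colour gives the number of probes per cell and the dashed line marks equal values. Points lie closer to the line in array set 2 (r = 0.857) than in array set 1 (r = 0.727), and reach further from 0 on the side of panicle.

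Large differences were mostly toward panicle. Over 2-fold, 6729 probes were higher and 6413 lower in panicle, a nearly even split. Over 8-fold the numbers were 1389 (1.68% of those tested) and 541 (0.652%), so that 72.0% of these probes were higher in panicle. Over 32-fold they were 179 and 40, and over 64-fold 51 and 6. The range of a channel differed between the arrays, as the lowest signal intensity of a probe well above background was 65.3 to 123 on panicle arrays and 44.2 to 70.1 on callus arrays, after each channel had been scaled to a median of 1000. Among the 62344 probes well above background and not saturated in both channels of all 4 arrays, 1098 were higher and 335 lower in panicle by more than 8-fold, and the share higher was 76.6%. This restriction removes a probe that falls below the floor of either tissue, and the floor was mostly higher on panicle arrays, so that the larger share does not separate the excess from the difference in floors, whose part was not tested.

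**Figure D2:**
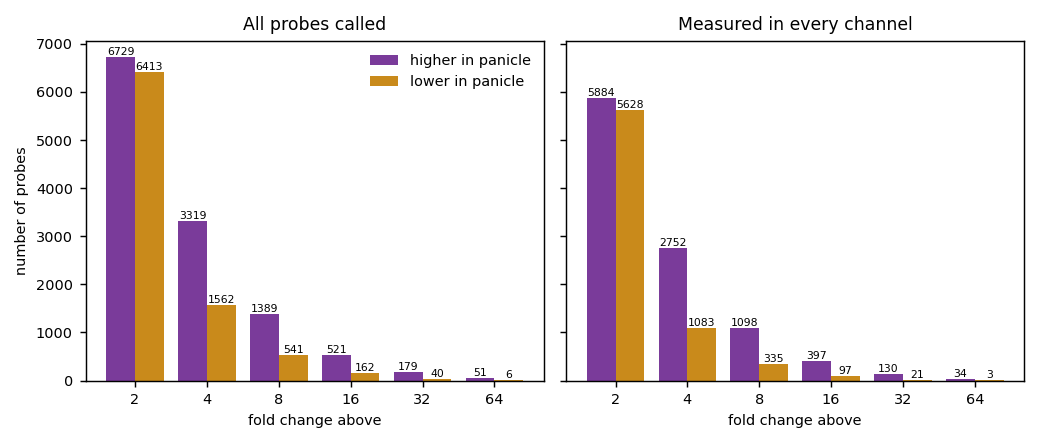
Number of probes called higher (left bar) or lower (right bar) in panicle than in callus with a fold change above the value on the x axis, over all probes and over probes well above background and not saturated in every channel. The pair of bars is nearly even at 2-fold (6729 and 6413) and departs from it at each larger fold.

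Set against shoot, the probes called in the 2 directions had different patterns. Probes higher in panicle than in callus had a median of 0.92 for panicle over shoot and -0.88 for callus over shoot, and a median difference of 1.80. Probes lower in panicle had a median of 0.02 for panicle over shoot and 1.52 for callus over shoot, and a median difference of -1.32. In the first group panicle lay above shoot and callus below it, whereas in the second panicle lay near shoot and callus above it. In root, set against shoot on other arrays, the medians of the same probes were -0.04 and 0.44. The median signal intensities of the probes higher in panicle were 5960 and 6015 in the 2 panicle replicates and 1098 and 1119 in the 2 callus replicates. Those of the probes lower in panicle were 2176 and 2214 in panicle and 6852 and 6709 in callus.

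The share of probes called differed among the kinds of design sequence. Of 37372 probes on FL-cDNA loci, 5246 were higher and 5044 lower in panicle, 27.5% in all against 19.2% of all probes. Of 8463 probes on 3′-end units, 1096 were higher and 1037 lower (25.2%). Of 14323 ENDS probes, 709 were higher and 1123 lower (12.8%), and of 21732 CDS probes 572 were higher and 899 lower (6.77%). Of 1028 probes on single FL-cDNA clones, 100 were higher and 108 lower (20.2%). The direction differed too: 51.0% of the calls on FL-cDNA loci were higher in panicle, against 38.7% on ENDS and 38.9% on CDS models. The kinds also differed in signal, with 85.3% of the FL-cDNA locus probes, 67.2% of the ENDS probes and 60.4% of the CDS probes well above background and unsaturated in every channel. Among the probes measured in this way 29.3%, 16.8% and 9.49% were called, and 50.8%, 38.3% and 36.0% of these calls were higher in panicle. The order of these 3 kinds by the share called was the same among probes with a measured signal, whereas ENDS and CDS models changed places in the share of calls higher in panicle. No test between kinds was made.

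Within FL-cDNA loci, 32.2% of the probes shared by all transcripts were called, 24.2% of the E5 probes and 14.8% of the variant-specific probes. Of the calls on E5 probes 56.5% were higher in panicle, against 48.8% of those on shared probes. By the chromosome number in the identifier, between 12.2 and 15.7% of the probes of a chromosome were higher and between 12.1 and 15.5% lower in panicle.

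The tissue labels could be set against the libraries from which the FL-cDNA clones had been isolated, since variant-specific and clone probes carry the name of 1 clone. This grouping was chosen after the files had been seen. Of 775 variant-specific probes on clones of the callus library, 26 were higher and 101 lower in panicle (3.35 and 13.0%), whereas 6.82 and 8.02% of all variant-specific probes were. Their median difference was -0.27, with -0.33 in replicate 1 and -0.29 in replicate 2. Of 1000 such probes on clones of the panicle library, taken after flowering and so later than the panicles hybridized here, 73 were higher and 51 lower, with a median of -0.05. These 2 numbers were 102 and 94 with normexp background correction and loess, 129 and 150 without the shoot channel, and 6 and 0 or 11 and 2 with a replicate left out in both tissues, so that their order depended on the processing. Among single clone probes, 26 of 194 from the panicle library were higher and 13 lower, and 6 of 129 from the callus library were higher and 20 lower, against 9.73 and 10.5% of all 1028. The medians of these clone probes were 0.26 in replicate 1 and -0.17 in replicate 2 for the panicle library, of opposite sign, and -0.08 and -0.50 for the callus library. Clone probes of the green shoot library (0.28 and -0.16) and of other libraries (0.18 and -0.18) also changed sign. The change was thus not particular to the panicle library. In the main fit, probes on clones isolated from callus were called lower in panicle more often than the background share. For variant-specific probes of the panicle library the order of the 2 numbers depended on the processing. With a replicate left out in both tissues, each tissue has 1 array per set. Too few of the 775 callus-library probes were then called to show whether their excess of lower calls held.

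Among probes measured in every channel and called with the same sign in both replicates, 6727 were higher and 7313 lower in panicle (8.11% and 8.82% of all probes tested). The 10 largest rises among them lay between 6.64 and 8.42 on the log2 scale. The probe R02-00645R_C had the largest. Its signal intensity was 99147 and 114809 in the 2 panicle replicates, against 243 and 205 in the 2 callus replicates. The difference through the shoot was 8.42 ± 0.14 (SD, n = 2), an estimated 342-fold (limma adjusted p = 0.00016). With normexp background correction and loess it was 6.93, so that its size depended on the processing, which the SD does not cover. Shoot, with 2.47 for panicle over shoot and -5.95 for callus over shoot, lay between both tissues.

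R05-00478F_C reached 69986 and 71603 in panicle, against 110 and 124 in callus, with a difference of 7.69 ± 0.03 (SD, n = 2; limma adjusted p = 0.00561). The ± values are the SD of the replicate differences. The p-values rest instead on the spread over the 8 arrays of a set, and the SE of the fit was 1.06 for this probe. The call of R05-00478F_C was lost when either replicate was left out in both tissues. R03-01172F_C had 28307 and 25344 in panicle and 210 and 135 in callus. It lay above shoot in panicle only, with 1.55 for panicle over shoot, -6.06 for callus over shoot and -5.99 for root over shoot. Its call was lost without replicate 1 in both tissues.

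R10-00166R_C had 11478 and 13405 in panicle, against 81.8 and 78.0 in callus. Its panicle signal was close to that of shoot, with a log2 ratio of 0.38, so that the difference of 7.20 came from a callus signal far below shoot (-6.83). The same held for R09-00235R_S2, a variant-specific probe, with 0.50 for panicle over shoot and -6.14 for callus over shoot. In contrast R07-00534R_C, with 80654 and 56336 in panicle and 206 and 182 in callus, was far above shoot in panicle (4.70) and less far below it in callus (-2.02).

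The remaining rises were the E5 probe E5_11938 on locus R01-CHRv2-00525R (7.67), the 3′-end unit probe R02-E3TU-00438F (7.15), the ENDS probe 9630.m01197_END (7.07) and R01-00924F_C (6.93). R01-00924F_C was the only 1 of the 10 that was above shoot in root, with a log2 ratio of 1.63. In all 10, both panicle values lay above both callus values, which their choice by size makes nearly certain. The SD between replicates was at most 0.80.

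The 10 largest falls lay between -6.64 and -5.54. R02-01025R_C had 404 and 580 in panicle, against 61140 and 65437 in callus, a difference of -6.64 ± 0.03 (SD, n = 2; limma adjusted p = 0.00016). It was above shoot in callus (4.02) and below shoot in panicle (-2.63) and in root (-2.75).

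R04-00197R_C had 797 and 1104 in panicle and 185185 and 182682 in callus. Its ratio was near 0 for panicle over shoot (-0.33), high for callus over shoot (5.82) and also above 0 for root over shoot (3.48). R10-00439F_C, with 573 and 595 in panicle and 57761 and 50971 in callus, likewise was above shoot in callus (4.23) and root (1.44).

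R12-00299R_C had a different pattern, with 220 and 243 in panicle and 15628 and 20583 in callus. Its callus signal was that of shoot (0.08) and its root signal was somewhat above it (0.64), and the difference of -5.95 came from a panicle signal far below shoot (-5.87). R10-00009F_C (-5.99), R05-00470F_C (-5.83) and R07-00614F_C (-5.54) were below shoot in panicle and above it in callus. The other 3 were the E5 probes E5_12048 (-5.69), E5_12947 (-5.57) and E5_08840 (-5.56). In all 10 falls both panicle values lay below both callus values, which again goes with their choice by size.

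**Figure D3:**
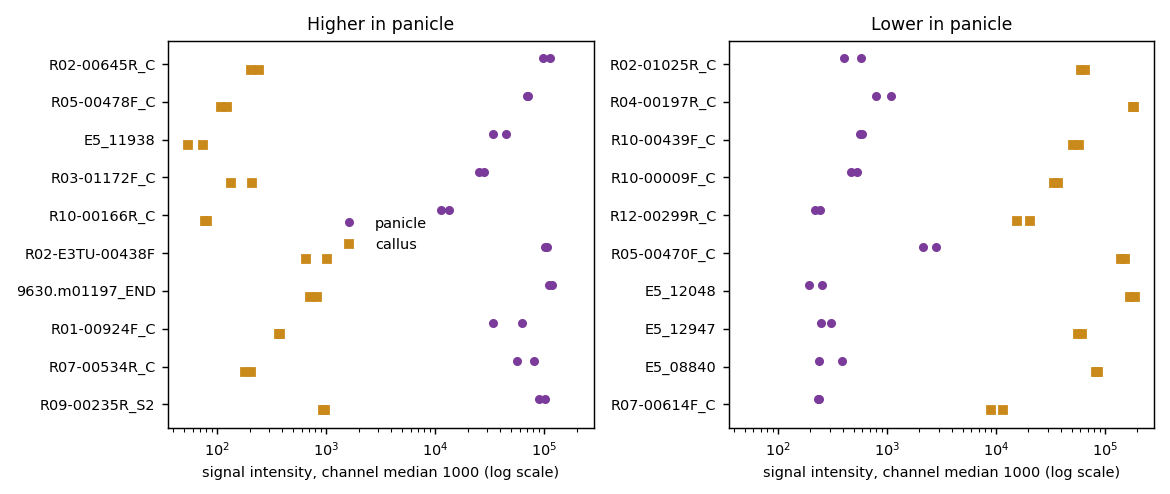
Signal intensity (channel median 1000, log scale) of the 10 named probes higher (left panel) and the 10 lower (right panel) in panicle than in callus; each probe has 2 circles for the panicle replicates and 2 squares for the callus replicates. The values of the 2 tissues do not overlap for any probe, which goes with the choice of probes by size. The replicates of a tissue lie close together.

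Some probes had signal in 1 tissue and were not well above background in the other on both arrays. This was so for 566 probes in callus and 1732 in panicle, of which 173 and 157 were called with the same sign in both replicates. Over all probes 19.2% were called. Only calls toward the tissue with signal were counted here, so that the direction of these probes was set by their choice. The fold of such a probe is the mean of the bright tissue over the higher of the dim probe's own signal and the lowest signal well above background. It comes from single channels after Aquantile normalization, a scale other than that of the signal intensities printed beside it. The dye orientations are balanced over the replicates. The fold is a lower bound only where single channels compare between arrays, and not where the shoot signal of the same spots moved too. Signal intensities here were not capped, unlike in the paper. By this measure 95 of the 173 were at least 8-fold higher and 61 of the 157 at least 8-fold lower in panicle.

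Among those not well above background in callus was R04-00447R_C. Its signal intensity was 79516 and 85496 in panicle, against 25.4 and 33.6 in callus, and it was 1063-fold higher in panicle by this measure. The fit through the shoot called it higher in panicle (limma adjusted p = 0.00016), with a value that rests on callus signals not well above background and is given no size here. Its shoot signal was 3806 and 3344 on the panicle arrays and 898 and 705 on the callus arrays.

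For the 3 probes with larger bounds, the bound and the fitted difference through the shoot were far apart. R11-00399F_C had 620690 and 385586 in panicle and 28.3 and 25.3 in callus. It was 7126-fold higher in panicle by the single channels, yet its fitted difference through the shoot was 4.22. This and the other fitted differences of the probes below background rest on signals not well above it and are not measured sizes. The shoot channel of the same spots read 43657 and 26594 on the panicle arrays, against 37.9 and 33.9 on the callus arrays. The last value of each pair is from replicate 2, with the same shoot extract. Single channels thus did not compare between arrays for this probe, and its fold is no bound on the tissue difference. E5_11157 and E5_12375 had the same pattern, 4528-fold and 1941-fold higher by the single channels and 3.74 and 2.86 on the log2 scale through the shoot. In replicate 2, where both arrays carried shoot extract 2, the shoot signal of E5_12375 was 26594 on the panicle array and 59.6 on the callus array. R11-E3TU-00443F, 985-fold higher by the single channels, had shoot signals of 6227 and 4536 on the panicle arrays and 31.8 and 30.7 on the callus arrays.

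The mirror image was found among the probes not well above background in panicle. R09-00298F_C had 68.6 and 129 in panicle, against 100106 and 95922 in callus. By the single channels it was 1081-fold lower in panicle after Aquantile normalization and 997-fold lower on the scale of these intensities. Its shoot signals were 82.9 and 135 on the panicle arrays and 19121 and 9606 on the callus arrays. Its difference through the shoot was -3.07. E5_11498 (797-fold lower by the single channels), R04-00060R_C (386-fold), E5_01462 (198-fold) and R02-01158R_C (191-fold) likewise had shoot signals that were lower on the panicle arrays. Through the shoot they differed by -5.36, -3.37, -4.17 and -4.52. When a replicate was left out in both tissues, 8 of these 10 probes lost their call in at least 1 of the 2 cases, the exceptions being R04-00447R_C and R11-E3TU-00443F, and R11-00399F_C also lost it when any single replicate of either tissue was left out.

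Since shoot was present on every array, its own change between the panicle and the callus arrays could be measured. After scaling of each channel, the SD over probes of the shoot signal on the panicle array minus that on the callus array (log2) was 0.81 in array set 1 and 0.70 in array set 2 for replicate 1, with different shoot extracts. For replicate 2, with the same extract, it was 0.68 and 0.70. Among probes well above background in every channel it was 0.71 and 0.57 with different extracts, against 0.58 and 0.52 with the same extract. Whether the extract was shared cannot be told apart from replicate and dye. The tissue signals differed with an SD of 1.31 to 1.37. Across probes the tissue and the shoot term were correlated, with r from 0.493 to 0.605. They share the spot on each array, and the part of this in the differences was not tested.

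Over all probes, 212 had a shoot signal more than 8-fold higher on the panicle array in both replicates, and 62 one more than 8-fold lower. Of the probes called higher in panicle 95 were among the 212 and none among the 62, and of those called lower 4 and 45 were. Of the 10 named rises none had such a shoot signal, and of the 10 named falls 1 had. This was E5_12048, whose shoot signals were 310 and 411 on the panicle arrays and 7212 and 4497 on the callus arrays. Without the shoot channel, the direct difference of panicle and callus signals had the other sign for 15103 of all 82918 probes. Among the probes called it did so for 16 of 7723 called higher and 46 of 8211 called lower. Both measures use the same tissue channels, so that large differences mostly share their sign and these counts are no separate check.

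**Figure D4:**
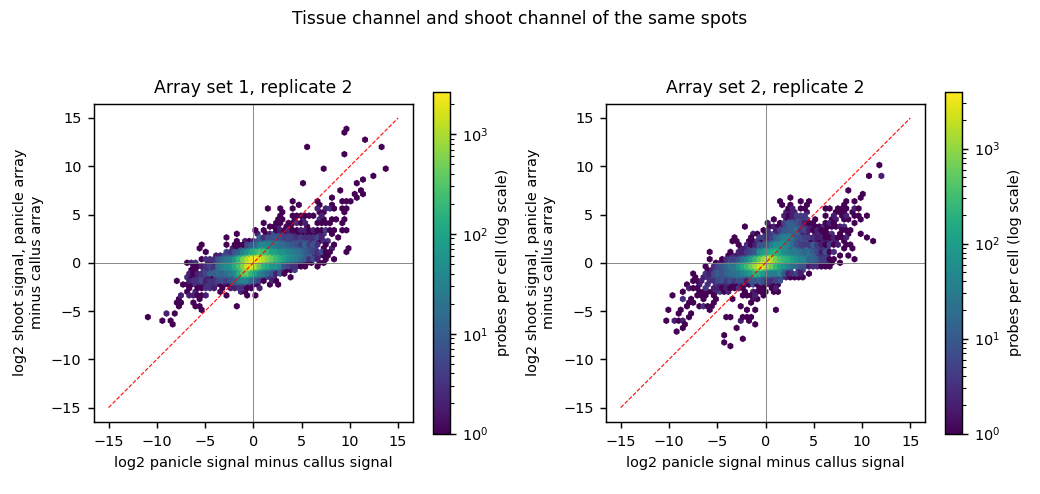
Panicle signal minus callus signal (x axis, log2) and shoot signal on the panicle array minus that on the callus array (y axis, log2) for the same spots of replicate 2, in which both arrays carried the same shoot extract. Probes on 1 array set only are shown, and the dashed line marks equal values; the shoot signal departs from 0 together with the tissue signal, with r of 0.548 and 0.563 in the 2 array sets.

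FL-cDNA loci with several probes showed how far a difference held along a locus. Of 20419 loci, 2590 had at least 3 probes and 1301 of these had a probe called. Every probe was called higher in panicle, with the same sign in both replicates, for 85 loci, and every probe was called lower for 28.

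The 4 probes of R01-CHRv2-00525R had the highest median, 5.96, but differed among themselves. Its shared probe R01-00525R_C had 14844 and 15676 in panicle, against 118 and 57.6 in callus, a difference of 6.15, and E5_11938 and E5_12725 gave 7.67 and 5.77. The fourth probe, E5_00785, had 4089 and 4523 in panicle and 1732 and 1340 in callus, a difference of 1.33, whose call was lost without panicle replicate 1, panicle replicate 2 or callus replicate 2.

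All 8 probes of R03-CHRv2-00544F were bright in panicle, from 96302 to 262595, against 2015 to 6156 in callus, with differences of 3.58 to 6.19 and a median of 5.29. The 6 probes of R03-CHRv2-01238F were more even, at 20153 to 47207 in panicle and 267 to 1330 in callus, with differences of 4.34 to 6.10. No panicle value of either locus overlapped a callus value, which goes with the choice of loci by size.

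Among the loci lower in panicle, the 7 probes of R05-CHRv2-00346R had 250 to 4108 in panicle, against 21242 to 80359 in callus, and differences of -5.57 to -3.81. The 5 probes of R08-CHRv2-00317R had 238 to 2873 in panicle and 12249 to 27573 in callus, and differences of -4.92 to -2.88. The 9 probes of R12-CHRv2-00296R had 83.8 to 3099 in panicle and 24921 to 101901 in callus. Their differences ran from -4.70 to -1.65, the last for E5_12808, with an SD between replicates of up to 1.32. E5_12808 itself had 152 and 156 in panicle, against 38453 and 47730 in callus, and its shoot signals were 70.04 and 65.33 on the panicle arrays and 6050 and 6182 on the callus arrays, so that its small difference through the shoot stood beside a large one between the tissue signals. The shoot signal moved likewise at E5_09114 and E5_12400 of this locus. It was 53.1 and 105 on the panicle arrays and 5271 and 4617 on the callus arrays for E5_09114. For E5_12400 it was 76.8 and 255, against 4088 and 5005. The call of E5_12808 was lost when any single replicate was left out.

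At 62 loci, of 981 with at least 2 probes called, probes were called in opposite directions, and 54 of these loci had such a pair among probes measured in every channel. The widest gap, 5.46, was that of R05-CHRv2-00609R. Its shared probe R05-00609R_C had 8456 and 9423 in panicle, against 357 and 408 in callus, a difference of 4.16, while E5_00457 had 8933 and 9664 in panicle and 30065 and 22281 in callus, a difference of -1.30. Of its 8 probes, 2 were called higher and 2 lower.

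R04-CHRv2-00519R had the reverse arrangement. Its shared probe R04-00519R_C was lower in panicle, with 28734 and 16031 in panicle and 78214 and 55121 in callus (-1.96), whereas 5 of its E5 probes were called higher, by 1.43 to 3.10. At R08-CHRv2-00232F the gap was 4.13, between E5_10750 (3.42) and E5_01313 (-0.71), and the shared probe did not pass the test (-0.06).

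At R01-CHRv2-00193R, 10 probes ran from -1.29 for E5_04550 to 2.81 for E5_05324. E5_04550 had 26458 and 25954 in panicle and 71786 and 55861 in callus, and E5_05324 had 15780 and 13315 in panicle and 1067 and 784 in callus. At R05-CHRv2-00331R the shared probe R05-00331R_C was higher in panicle (2.76) and E5_07319 lower (-1.31). For these loci the replicates of a probe lay closer together than the probes that were called in opposite directions. This follows from their choice by the widest gap and adds no support to the calls. Of the probes named at these 5 loci, R05-00609R_C was the only one still called whichever replicate was left out in both tissues, and E5_00457 and E5_01313 lost their call when any single replicate was left out. Whether the probes of a locus measured separate transcripts was not tested.

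**Figure D5:**
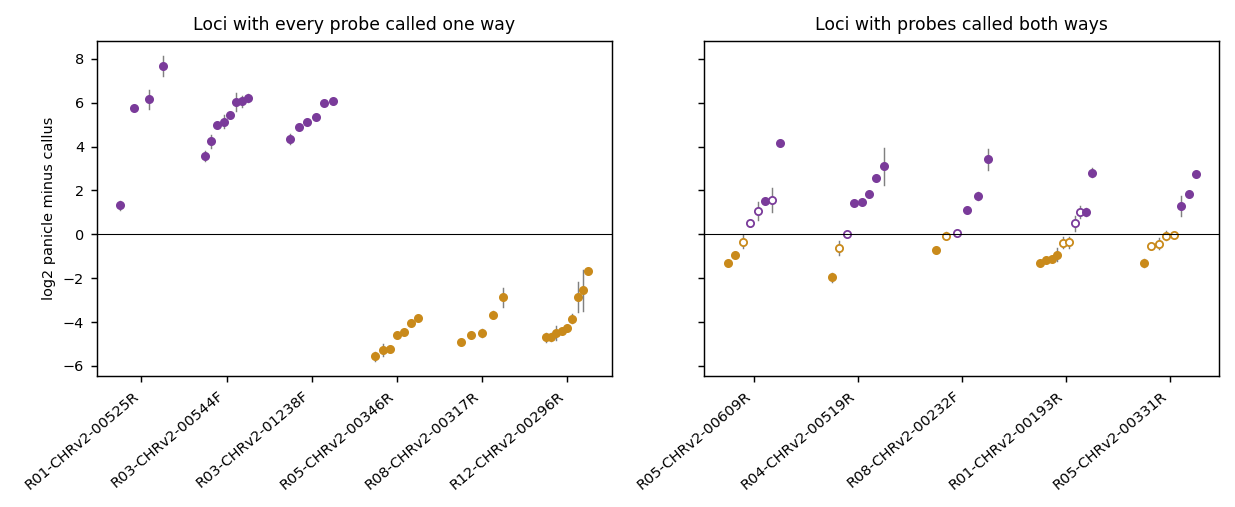
Difference of panicle minus callus (log2) for each probe of 6 FL-cDNA loci with every probe called in 1 direction (left panel) and of 5 loci with probes called in both (right panel). Circles are fitted differences, filled where the adjusted p was under 0.05, and vertical lines join the values of the 2 replicates; all 8 probes of R03-CHRv2-00544F lie above 3 and those of R05-CHRv2-00609R lie on both sides of 0.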

How the data were processed

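Signals of 8 panicle and callus arrays, with 8 root and IR64 arrays in the same fits, were analysed. The deposited intensity values, Cy3 and Cy5 processed signals, were made by the authors with Agilent Feature Extraction, 8.1 in the file headers and 7.5 in the labels, which subtracted background and normalized the dyes by LOWESS within an array. The authors' deposited log10 ratios were equal to the scanner's log ratios once those of Cy3-labeled tissue were reversed in sign. The depth of an array is its number of hybridizations, which limits precision.

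Outlier spots were left out, and log2 of tissue over shoot was fitted with limma 3.58.1 (R 4.3.3), 1 fit per array set over 8 arrays with a coefficient per tissue and no dye term, followed by Benjamini-Hochberg adjustment over both sets at 0.05. For the 1028 clone probes on both array sets the difference was averaged and the larger p taken. Fold changes are relative to the scale of each array. On simulated data with changed probes, 17.5% of 40 with a log2 change of 2 and 35% of 40 with a change of 3 were called among 82918 probes. None of 40 with a change of 1 was called. Only 40 probes were changed per size and direction, far fewer than were called in the data. The adjusted threshold is stricter with so few changes, so these shares do not give the sensitivity of the fit to the data.

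Replicate differences correlated between tissues with r from 0.207 to 0.486, above 0.1 in every pair. The replicate number, which is the dye orientation, thus pairs the arrays. A replicate term passed the threshold for 131 of 84067 tests. The main fit did not use this pairing, and with a replicate block 9485 probes were higher and 10511 lower. Named probes were called probes of the same sign in both replicates: the 10 highest and 10 lowest measured in every channel, the 5 largest bounds per direction, the 3 loci per direction with at least 3 probes all called 1 way, and the 5 loci with the widest gap between opposite calls. The groups, lists and rules were chosen with earlier results of these data known. Gene lists were not run, since no gene names matched. The alternatives were other background corrections, centring, a filter, outlier spots kept, the deposited ratios, a replicate block, fewer arrays, no shoot channel, and leaving out replicates.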

Additional observations from a re-analysis of the deposited data

Results flagged for a closer look

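The control spots, which enter no comparison above, held 1 sequence with a large difference and a signal well above background. The control that the design names CAB_QC was higher in panicle than in callus by 2.39 on the log2 scale, the mean of 4 array pairs, with 2.27 to 2.49 in the single pairs. Its signal intensity was 4589 to 6225 on the panicle arrays and 516 to 1087 on the callus arrays, well above background on all of them, and both tissues lay below shoot, with -2.95 to -2.57 for panicle over shoot and -5.36 to -4.92 for callus over shoot. The controls COR_QC and SIG_QC differed by -0.001 and 0.28 on average. C1_QC differed by 0.67 on average, with -0.10 to 1.31 in the single pairs. The spots named (-)3xSLv1 were higher in panicle in every pair, by 0.34 to 0.91. At most 16.7% of the spots of these last controls were well above background on any array. Whether this offset near the floor adds to the excess of large differences toward panicle was not tested. The files do not explain these names.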

How the results depend on the processing

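The numbers of probes called higher and lower stayed within 1.5 times of 7723 and 8211 with normexp and loess (10187 and 12122), centring, the filter on dim probes, outlier spots kept, the deposited ratios and only the panicle and callus arrays. With a replicate block they were 9485 and 10511, and this block moved no count of calls by over 1.5 times. With the block and only panicle and callus arrays 2528 CDS probes were called, against 1471. Without the shoot channel, with a replicate block, 13396 were higher and 12711 lower, and the calls by kind were 15651 for FL-cDNA loci, 386 for clones, 3315 for 3′-end units, 3472 for ENDS and 3283 for CDS models. Normexp and loess called 414 clone probes in place of 208. Leaving out replicates gave 1074 to 5645 higher and 390 to 4934 lower, with 1113 to 6972 FL-cDNA locus, 6 to 145 clone, 206 to 1480 3′-end unit, 90 to 1170 ENDS and 49 to 861 CDS probes; with a replicate left out in both tissues each has 1 array per set and is assumed to vary like the other groups.

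The settings for counts over 8-fold, for callus-library clones, and for counts over 2-fold without the shoot channel (10569 higher) were chosen after seeing the data. Over 8-fold there were 708 higher and 252 lower with normexp and loess, 2333 and 955 without the shoot channel, and 335 lower among probes measured in every channel. Without a replicate in both tissues they were 799 to 1080 higher and 283 to 288 lower. Higher probes outnumbered lower ones over 8-fold in each of these settings. The opposite-direction loci were 67 with the filter on dim probes, and scaling to a median of 1000 gave 98 and 61 probes at 8-fold or more for the bounds. Of the variant-specific probes on callus-library clones, 33 were higher and 162 lower with normexp and loess, and 52 and 193 without the shoot channel. Without a replicate in both tissues too few of them were called to compare with all probes. No named probe reversed its called direction under any of these alternatives. The causes of these changes were not tested.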
